A study of Homo sapiens with 4 samples.

Results

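The direct targets of p53 described here are 9 genes that this transcription factor is known to switch on: CDKN1A, MDM2, GDF15, CCNG1, SESN1, DDB2, TP53I3, RRM2B and TNFRSF10B. They were measured in U87MG, an established human glioma line that carries wild-type p53, after transfection with the miR-490 overexpression vector PC-490 or with its control vector PCDNA. Each group has 2 arrays (PrimeView 3' expression arrays), labelled from 100 ng of total RNA taken 48 h after transfection, and both groups share the cell line, the culture plates and the exposure to a plasmid. Members were the probe sets that the platform annotation gives to 1 gene symbol, that symbol being one of the 9, with every such probe set kept. This gave 40 of the 49293 probe sets on the array, from 1 for TP53I3 to 11 for MDM2. Nothing in the labels says that a group's 2 arrays came from separate cultures, and the p-values then cover only the spread between arrays, possibly a technical one. p53 itself was not analysed here.

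p53 is kept low in unstressed cells by MDM2, a ubiquitin ligase that marks it for destruction, and it builds up after DNA damage and other stress. It then binds DNA as a tetramer and switches on genes that halt the cell cycle, repair DNA, limit oxidative damage, start apoptosis or signal to other cells. MDM2 is itself a target, which closes a negative feedback loop, and in gliomas with wild-type p53 the target genes are widely read as a measure of the pathway's activity.

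A microRNA pairs with messenger RNAs mainly through its seed, bases 2 to 8. The mature forms of miR-490 are shown because they are what the vector was built to raise, with the seed in capitals. Sequences are from RefSeq (GRCh38.p14, chromosome 7, plus strand). The 3p arm lies at chr7:136903242-136903263 and the 5p arm at chr7:136903205-136903224.
hsa-miR-490-3p: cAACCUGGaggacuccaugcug
hsa-miR-490-5p: cCAUGGAUcuccaggugggu

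p53 contacts DNA through a pair of similar half-sites of 10 bases. RefSeq promoter windows (GRCh38.p14, 250 bases before to 50 after a start site) were listed for 7 of the 9 genes, 14 windows in all, and they were searched for the p53 consensus, 2 half-sites next to each other or 1 base apart. The consensus reads the same on both strands, so 1 search covers both. Within 3 mismatches of the 20 letters, 4 genes had a match, shown with the half-sites in capitals so that each can be read against the consensus. No binding was measured.
DDB2: ggtttGAACAAGCCCtGGGCATGTTTggcg
MDM2, first match: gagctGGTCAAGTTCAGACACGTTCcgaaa
MDM2, second match: aaaggAGTTAAGTCCTGACTTGTCTccagc
GDF15: tgcacAGCCATGCCCGGGCAAGAACtc
SESN1: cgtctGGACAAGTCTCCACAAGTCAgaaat

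The DDB2 match at chr11:47214974-47215003 (plus strand) had 0 mismatches, which held for 7 of 35116 promoter windows (0.0199%). It spans bases 6 to 26 after a listed start. The first MDM2 match at chr12:68808918-68808947 (plus strand) had 2 mismatches, and 1.34% of windows hold a match at least as close. The second, at chr12:68808956-68808985, had 3 mismatches, as did those of GDF15 at chr19:18386181-18386207 (plus strand) and SESN1 at chr6:109009013-109009042 (minus strand). A match with up to 3 mismatches was found in 9.75% of windows, so by this measure these 3 matches are common. All these shares are per window, and MDM2 had 4 windows, SESN1 3, DDB2 2 and GDF15 1. The windows of CDKN1A, CCNG1 and TP53I3 had no match within 3 mismatches, which says only that these letters are not in those windows. RRM2B and TNFRSF10B were not searched.

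The comparison asks whether p53 targets differ in level between cells given the miR-490 vector and cells given its control. The level of miR-490 itself was not analysed here. None of the 9 genes passed the test across all features, and the differences were small. Averaged over each gene's probe sets, they ran from 0.873 of the control level for GDF15 to 1.10 times for DDB2. GDF15 and CCNG1 had lower values on both miR-490 arrays, DDB2 and TP53I3 had higher values on both, and CDKN1A and MDM2 lay within 0.015 of the control mean on the log2 scale. The 95% intervals of the 9 folds all lay between 0.764 and 1.23 (limma).

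With limma and Benjamini-Hochberg adjustment over all 49293 probe sets, 0 of the 40 member probe sets had an adjusted p under 0.05, where 0% of all probe sets did. The smallest adjusted p among them was 0.900. Without adjustment, 4 member probe sets had a p under 0.05, against a background of 5.15% of all probe sets. These were 2 of GDF15 and 2 of MDM2, all lower in the miR-490 arrays. Leaving out 1 array gave 3 member probe sets without control replicate 2 and 2 without each of the others, and the first GDF15 set was among them each time. Of the 40, the mean was lower with miR-490 in 23, higher in 16 and equal in 1. The median difference was -0.035 (log2), against 0 over all probe sets. The groups did not overlap in 19 (47.5%), 11 lower and 8 higher, where 31.2% of all probe sets did not overlap, 15.6% in each direction. Probe sets that the annotation gives to 1 gene are not independent, so these counts rest on 9 genes. Whether each reads only that gene was not tested. For MDM2, GDF15, CCNG1, SESN1, DDB2, RRM2B and TNFRSF10B the sets were designed on more than 1 sequence record. Sets of such a gene need not all read the same transcript. An exact permutation test (two-sided) of 2 arrays against 2 cannot give a p below 0.333.

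**Figure D1:**
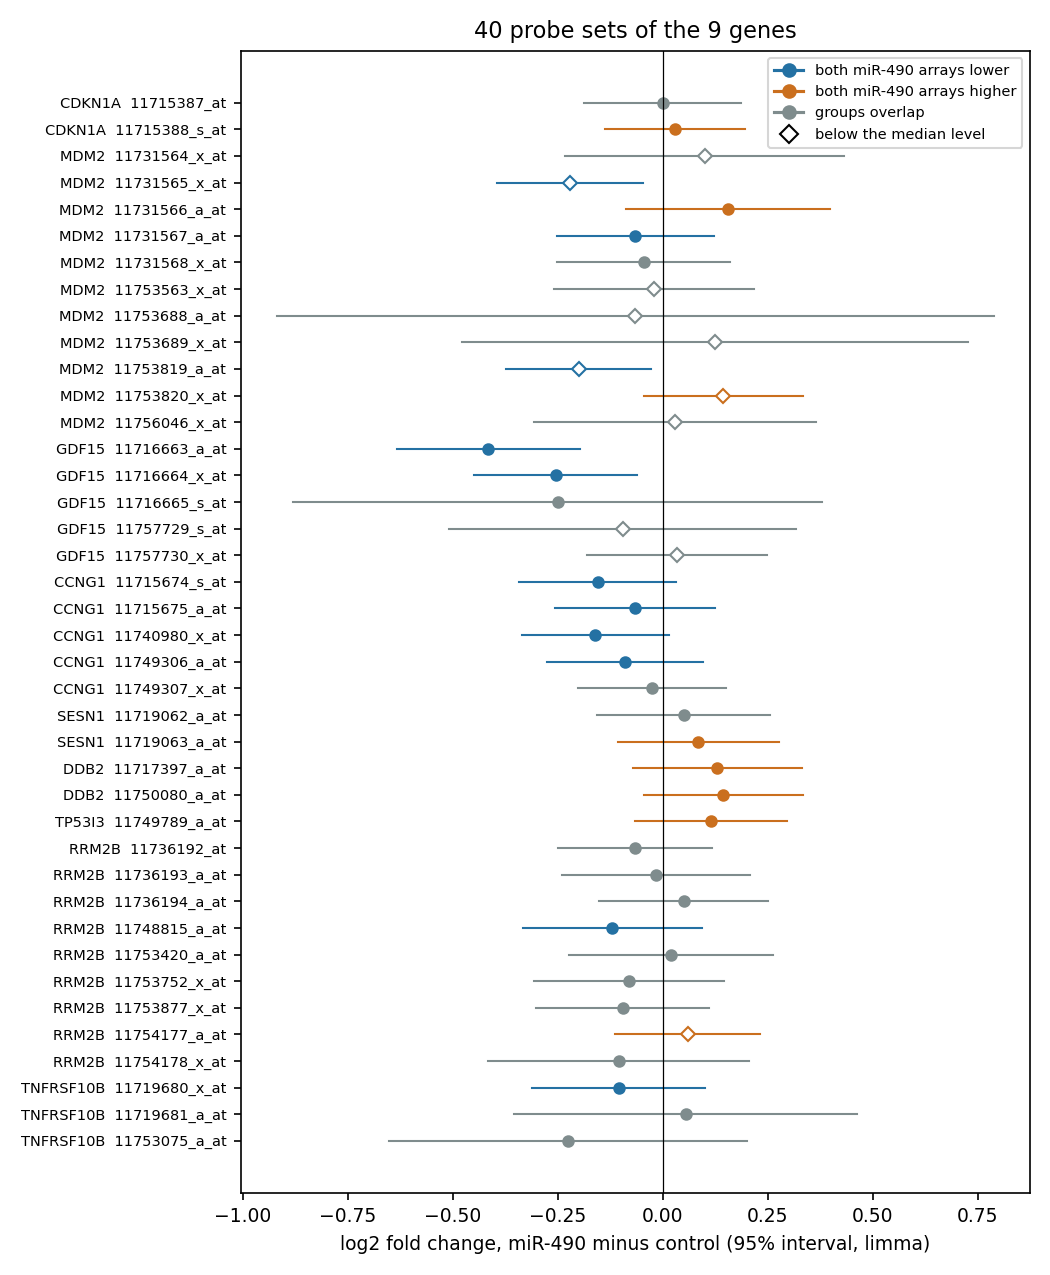
Log2 fold change of each of the 40 probe sets (miR-490 minus control, horizontal axis) with its 95% interval from limma, by gene down the page. Filled circles lie above the median level of all probe sets, open diamonds below it, and colours show whether both miR-490 arrays were lower, both higher, or the groups overlapped. The largest difference is that of the first GDF15 probe set at -0.415, and the widest interval belongs to a dim MDM2 probe set.

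Averaged over the probe sets of each gene and adjusted over 18132 genes, 0 of the 9 genes were called (limma, smallest adjusted p 0.905), where 0% of all genes were. GDF15 alone had an unadjusted p under 0.05 (0.0478), as did 5.29% of all genes. Without control replicate 2 TNFRSF10B did too, and without any of the other arrays 0 of the 9 did. The groups did not overlap in 4 of the 9 genes (44.4%), against 32.4% of all genes. The median log2 fold change was -0.0055 over the 9 genes and 0.005 over all genes.

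**Figure D2:**
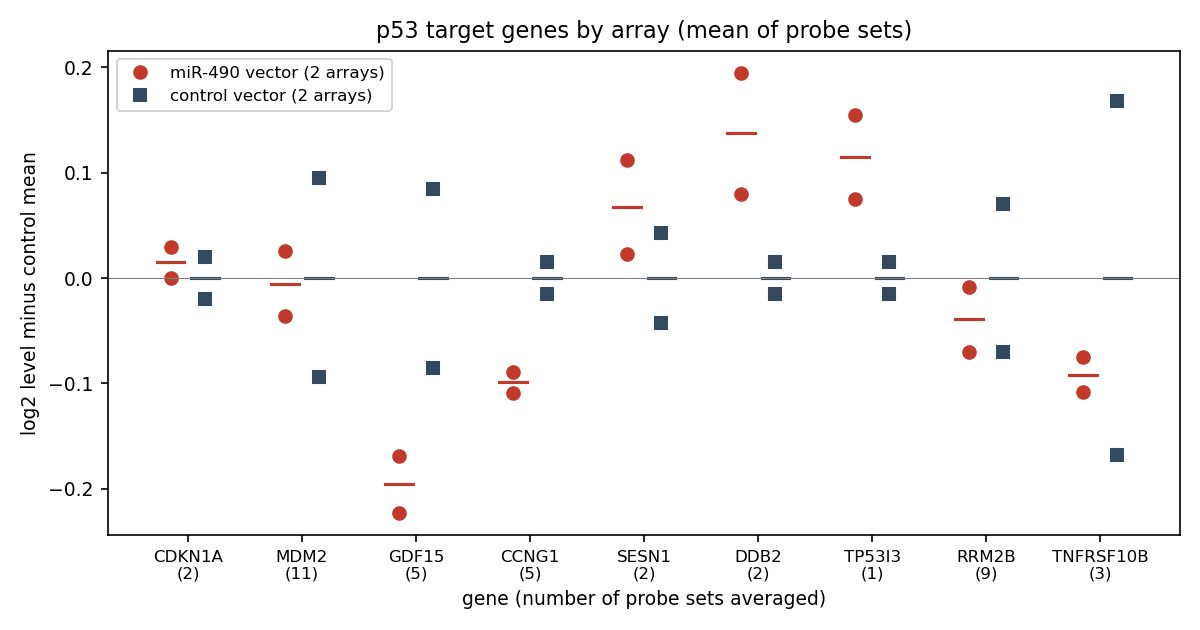
Level of each gene on each array, as log2 minus the mean of the control arrays (vertical axis), after averaging the gene's probe sets. Circles are the 2 miR-490 arrays, squares the 2 control arrays and bars the group means. Only in GDF15, CCNG1, DDB2 and TP53I3 do the 2 groups separate, and the control arrays of TNFRSF10B lie 0.337 apart.

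MDM2, the ubiquitin ligase that restrains p53, showed no common direction. The mean of its 11 probe sets was 4.31 and 4.25 in the miR-490 arrays, against 4.38 and 4.19 in the control arrays (log2). The control arrays lay on either side of both miR-490 arrays. The log2 fold change was -0.0055 with a 95% interval of -0.21 to 0.20 (adjusted p 0.997, limma), and it was 0.089 without control replicate 1 and -0.10 without control replicate 2. Single probe sets ran from -0.22 to 0.155, 6 of them lower and 5 higher, and 8 of the 11 were below the median level of the array. The probe set with the highest level, 11731567_a_at, read 6.78 and 6.68 with miR-490, against 6.79 and 6.80 in controls. Its groups did not overlap, but the gap between them was 0.01. The 2 MDM2 probe sets with an unadjusted p under 0.05 were dim, at 2.72 and 2.70 with miR-490 against 2.90 and 2.96 in controls for 11731565_x_at, and at 3.0 and 2.95 against 3.19 and 3.16 for 11753819_a_at. Its partner probe set 11753820_x_at, with the next number, had the opposite sign, at 3.93 and 4.01 with miR-490 against 3.86 and 3.79 in controls. Dim probe sets of this gene also varied most between replicates: 11753688_a_at read 2.69 and 2.43 in the miR-490 arrays and 3.10 and 2.15 in the control arrays.

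CDKN1A encodes p21, the inhibitor of cyclin-dependent kinases through which p53 halts the cell cycle. Its probe set 11715387_at read 9.12 and 9.07 in the miR-490 arrays, against 9.14 and 9.05 in the control arrays, and 11715388_s_at read 10.68 and 10.67 against 10.64 and 10.65. The first had equal means, and the second did not overlap but differed by 0.03 on the log2 scale. Over both, the fold was 1.01 with a 95% interval of 0.913 to 1.12 (adjusted p 0.997, limma), and the log2 fold change of 0.015 was -0.005 without control replicate 2 and 0.035 without control replicate 1.

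CCNG1, cyclin G1, recruits protein phosphatase 2A and acts on MDM2. The mean of its 5 probe sets was 8.21 and 8.19 with miR-490, against 8.31 and 8.28 with the control vector (log2). Both miR-490 arrays were lower, and the difference of -0.099 was larger than the gap between the arrays of either group. It did not pass the test (95% interval -0.24 to 0.046, adjusted p 0.919, limma). All 5 probe sets had lower means with miR-490, from -0.16 to -0.025, and 4 of them did not overlap. Over all probe sets 31.2% did not overlap, 15.6% in the lower direction. The groups lay close together in 11715675_a_at, at 8.43 and 8.32 with miR-490 against 8.44 in both controls. They were also close in 11749306_a_at, at 7.17 and 7.24 against 7.26 and 7.33. The largest difference was in 11740980_x_at, which read 8.24 and 8.22 with miR-490, against 8.42 and 8.36 in controls.

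DDB2, which recognises ultraviolet damage in DNA for nucleotide excision repair and carries the exact match to the p53 consensus shown above, was measured by 2 probe sets. The set 11717397_a_at read 7.53 and 7.41 in the miR-490 arrays, against 7.37 and 7.31 in the control arrays. The set 11750080_a_at read 8.69 and 8.58 with miR-490, against 8.49 in both controls. Both sets were higher on both miR-490 arrays, in the direction opposite to GDF15 and CCNG1. The gene's fold was 1.10 (95% interval 0.980 to 1.23, adjusted p 0.918, limma), so it did not pass. The log2 fold change of 0.14 was 0.08 without miR-490 replicate 1 and 0.20 without miR-490 replicate 2.

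RRM2B encodes a small subunit of ribonucleotide reductase that supplies deoxynucleotides for repair outside S phase. The mean of its 9 probe sets was 6.51 and 6.45 with miR-490, against 6.59 and 6.45 with the control vector. The groups overlapped, and single probe sets ran from -0.12 to 0.06, 6 lower and 3 higher. Its probe set with the highest level, 11736192_at, read 9.38 and 9.32 with miR-490, against 9.45 and 9.38 in controls. The gene's log2 fold change was -0.039, with a 95% interval of -0.22 to 0.14 (adjusted p 0.988, limma), and it was 0.031 without control replicate 1 and -0.11 without control replicate 2.

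SESN1, sestrin 1, dampens growth signalling through mTORC1 and oxidative stress. Its 2 probe sets read 7.44 and 7.36 with miR-490 against 7.29 and 7.41 in controls for 11719062_a_at, and 7.89 and 7.79 against 7.73 and 7.78 for 11719063_a_at. The first overlapped, and in the second the lower miR-490 array was 0.01 above the higher control array. The log2 fold change over both was 0.068 (95% interval -0.10 to 0.24, adjusted p 0.963, limma). It was 0.023 without miR-490 replicate 1 and 0.11 without miR-490 replicate 2, and the first set alone was at -0.01 without control replicate 1.

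TP53I3, also known as PIG3, is an oxidoreductase linked to reactive oxygen species in p53-driven apoptosis. Its single probe set read 8.01 and 7.93 in the miR-490 arrays, against 7.84 and 7.87 in the control arrays. Both miR-490 arrays were higher, at a fold of 1.08 (95% interval 0.972 to 1.21, adjusted p 0.919 over all genes, limma), which did not pass. The log2 fold change of 0.115 was 0.075 without miR-490 replicate 1.

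TNFRSF10B is the death receptor DR5, which binds the ligand TRAIL and starts apoptosis from the cell surface. The mean of its 3 probe sets was 7.78 and 7.81 with miR-490, against 8.05 and 7.72 with the control vector. The control arrays lay on either side of both miR-490 arrays. In 11753075_a_at the values were 6.58 and 6.61 with miR-490, against 7.05 and 6.59 in controls. This gave a log2 fold change of -0.225 that was 0.005 without control replicate 1. The set with the highest level, 11719680_x_at, read 10.42 and 10.36 with miR-490, against 10.56 and 10.43 in controls, a difference of -0.105 whose groups were 0.01 apart. The gene's log2 fold change was -0.092 (95% interval -0.38 to 0.19, adjusted p 0.975, limma), and it was 0.077 without control replicate 1 and -0.26 without control replicate 2.

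GDF15 is a secreted growth factor of the TGF-beta superfamily that many stresses raise, p53 among them. Its probe set 11716663_a_at read 7.38 and 7.24 in the miR-490 arrays, against 7.77 and 7.68 in the control arrays. This was 0.750 of the control level, with a 95% interval of the log2 fold change from -0.63 to -0.20, an unadjusted p of 0.00487 and an adjusted p of 0.900 over all probe sets (limma). The size of this difference, the largest of the 40 probe sets, lay at percentile 99.6 of all probe sets. The other GDF15 sets lay at 95.5, 95.2, 63.1 and 28.7, and the gene mean at 94.8 of all genes. The set 11716664_x_at read 8.03 and 7.91 with miR-490, against 8.23 and 8.22 in controls, at 0.838 of the control level. In both sets each miR-490 array was below each control array, and both were designed on the same sequence record. The other 3 sets overlapped: 11716665_s_at read 6.57 and 6.82 with miR-490 against 7.28 and 6.61 in controls, 11757729_s_at 4.01 and 4.45 against 4.36 and 4.29, and 11757730_x_at 3.45 and 3.29 against 3.34 and 3.33. The last 2 lay below the median level of the array. Over all 5 sets the gene was at 5.89 and 5.94 with miR-490, against 6.20 and 6.03 in controls, a log2 fold change of -0.20 (adjusted p 0.905, limma). It was -0.11 without control replicate 1 and -0.28 without control replicate 2.

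**Figure D3:**
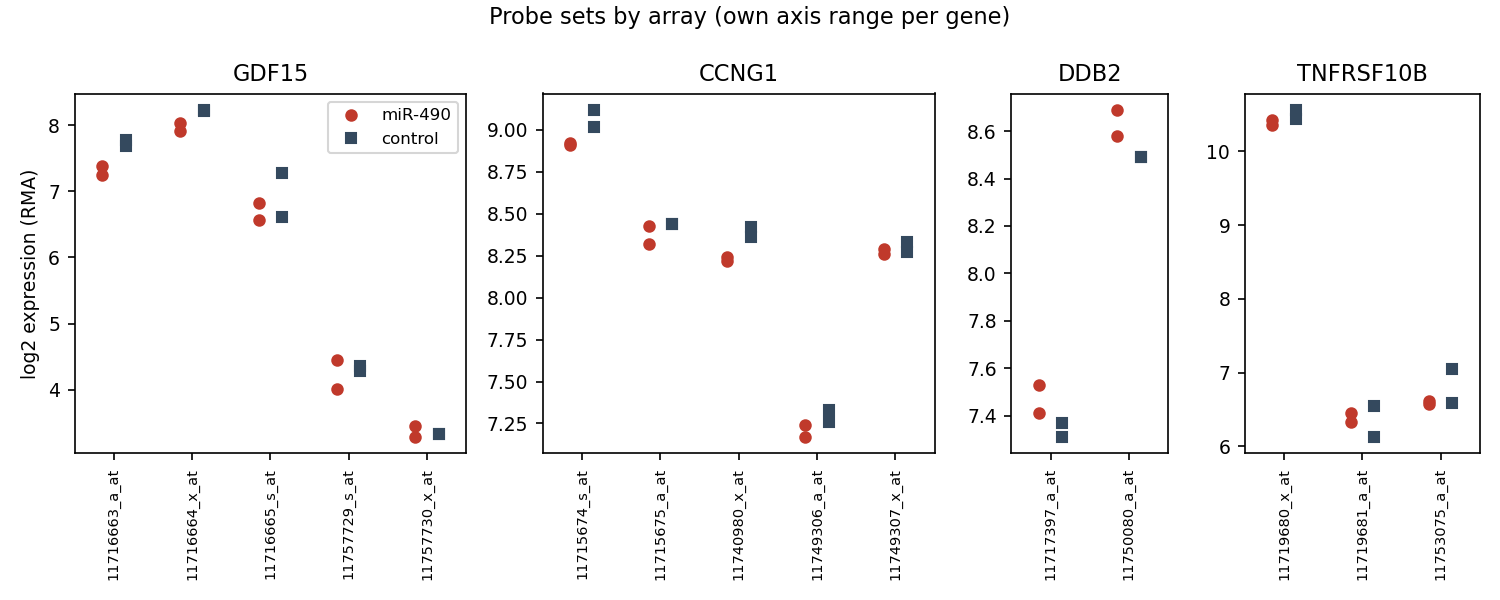
Log2 expression (vertical axis, own range per gene) of each probe set of GDF15, CCNG1, DDB2 and TNFRSF10B on the 2 miR-490 arrays (circles) and the 2 control arrays (squares). The first 2 GDF15 sets and 4 of the 5 CCNG1 sets have both circles below both squares, both DDB2 sets have them above, and TNFRSF10B shows control arrays that lie far apart in 2 of 3 sets.

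Other genes of the pathway were described by role, with probe sets averaged per gene. Of 24 regulators of p53, 19 were higher and 5 lower on average with miR-490. Some of them activate p53 and others restrain it, so this count gives no direction for the pathway. The median difference of the 24 was 0.019 (log2), and 0 passed. Over all genes 51.4% were higher, with a median of 0.005. EP300, an acetyltransferase coactivator of p53, was at 6.26 and 6.19 with miR-490, against 6.00 and 5.93 in controls, from 1 probe set (fold 1.20, unadjusted p 0.00761, adjusted p 0.905, limma). CHEK2, the checkpoint kinase that phosphorylates p53, was at 4.915 and 5.06 with miR-490, against 5.225 and 5.205 in controls, a fold of 0.854 (adjusted p 0.905, limma), and its 2 probe sets gave -0.41 and -0.045. KAT5, an acetyltransferase, had a log2 fold change of 0.15 and CREBBP, the paralogue of EP300, 0.10. MDM4, the partner of MDM2 in restraining p53, had 0.096 with probe sets from -0.145 to 0.295. Its level was dim, below the median of the gene means, 4.95. PPM1D, the phosphatase that turns the pathway off and is itself a target, had 0.076. Neither passed. Without 1 array the number of regulators with higher means ranged from 14 to 16, and their median was 0.011 without control replicate 2, 0.044 without control replicate 1 and 0.049 without miR-490 replicate 2.

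Of the 61 measured genes in 5 lists of p53 targets, 8 of the 9 genes among them and MDM2 not, 31 had higher and 29 lower means with miR-490, 1 was equal and 0 passed, with a median of 0.005, the same as over all genes. Groups did not overlap in 20 of the 61 (32.8%), near the 32.4% of all genes. Among targets of cell cycle arrest and growth control, 8 of 14 were higher and 6 lower (median 0.024). SFN, the 14-3-3 protein sigma, had a log2 fold change of 0.13 and the RNA-binding ZMAT3 0.098, while the ribosomal protein relative RPS27L had -0.125. GADD45A, a growth arrest and repair protein, had 0.04 and TP53INP1, a cofactor of p53 in cell death, 0.055. Among 20 targets of apoptosis, 9 were higher and 11 lower (median -0.018). PMAIP1, the BH3-only protein NOXA, was at 7.39 and 7.28 with miR-490, against 7.445 and 7.48 in controls. BID had a log2 fold change of -0.081, with both miR-490 arrays below both control arrays. BAX, which opens mitochondria, had a log2 fold change of -0.095, FAS, a death receptor, -0.053, BBC3, the BH3-only protein PUMA, 0.06, and TNFRSF10A, the death receptor DR4, -0.135 at a dim level. Without control replicate 1 the median of the apoptosis list was 0.015, and without control replicate 2 that of the cell cycle list was 0.

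Targets of DNA repair and nucleotide supply were split at 4 higher and 4 lower of 8 (median -0.005), with FANCC, of the Fanconi anaemia pathway, at -0.14 and REV3L, a catalytic subunit of translesion polymerase zeta, at 0.085. POLH, in the same list, was at -0.076 with overlapping groups. Targets of metabolism and redox had 6 of 10 higher (median 0.028). ALDH4A1, a mitochondrial enzyme of proline breakdown, was at 4.655 and 4.66 with miR-490, against 4.44 and 4.495 in controls (fold 1.14, adjusted p 0.905, limma). FUCA1, a lysosomal fucosidase, had a log2 fold change of -0.19 with overlapping groups, CPT1C had 0.098 and SESN2, sestrin 2, -0.063. Targets that are secreted or at the cell surface had 5 higher, 4 lower and 1 equal of 10 (median 0.01). NTN1, netrin 1, was at 0.093, PLXNB2, a plexin receptor, at 0.064 and KITLG, the ligand of KIT, at -0.046. The levels of FANCC, ALDH4A1, NTN1 and KITLG were dim, below the median of the gene means, 4.95. The 2 probe sets of NTN1 gave -0.105 and 0.29. The median of the repair list was -0.079 without control replicate 2, 0.031 without control replicate 1 and 0.018 without miR-490 replicate 2. That of the metabolism list was 0.013 without miR-490 replicate 1 and 0.014 without control replicate 1. That of the surface list was -0.0013 without control replicate 2 and at most 0.018 without any 1 array.

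Genes repressed when p21 lets the DREAM complex assemble on their promoters were mostly higher with miR-490, while CDKN1A itself had a log2 fold change of 0.015. Of 19 genes 15 had higher and 4 lower means, with a median of 0.07 against 0.005 over all genes, and 0 passed. In 8 of them both miR-490 arrays were above both control arrays, where 16.9% of all genes were. CCNB1, a cyclin that drives entry into mitosis, was at 8.47 and 8.48 with miR-490, against 8.35 and 8.25 in controls (unadjusted p 0.0371, adjusted p 0.905, limma). PLK1, a mitotic kinase, was at 5.78 and 5.98 with miR-490, against 5.72 and 5.56 in controls, and MKI67, a proliferation marker, at 5.73 and 5.60, against 5.40 and 5.56. The probe sets of MKI67 ran from -0.135 to 0.29. AURKB, a kinase of chromosome segregation, had a log2 fold change of 0.105. The 4 with lower means were CDC25A at -0.11, BUB1 at -0.05, CDK1 at -0.023 and CCNA2 at -0.01. The level of CDC25A was dim, below the median of the gene means, 4.95. For BUB1 both miR-490 arrays were below both control arrays. Without 1 array, 14 to 16 of the 19 were higher and the median was 0.05 to 0.087. The list was written with higher levels of mitotic genes on these arrays already known, so its count is no independent support.

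**Figure D4:**
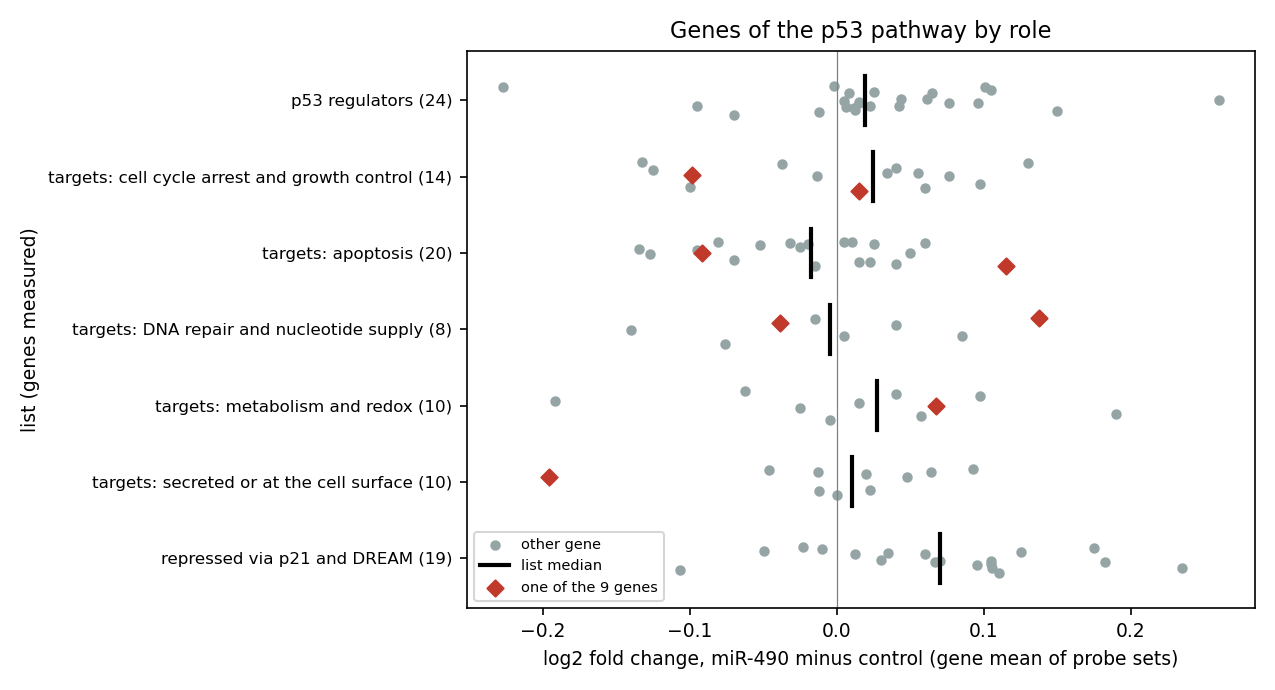
Log2 fold change (miR-490 minus control, horizontal axis) of each measured gene, by list down the page, with the number of measured genes in brackets. Diamonds mark the genes out of the 9, grey points the others and black bars the list medians. The medians of the regulator and target lists lie between -0.018 and 0.028, and that of the genes repressed through p21 and DREAM at 0.07.

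The arrays were alike. Which line they come from was not tested, and the markers listed as mesenchymal are shared by other mesenchymal cells. Array medians lay between 5.15 and 5.17, and pairs of arrays correlated across genes at 0.9982 and 0.9985 within groups and at 0.9982 to 0.9985 between groups. VIM, SPARC, FN1, TNC, CAV1, S100A10 and CD44, markers of mesenchymal and glioma cells, lay between 10.3 and 13.9 as means over the 4 arrays, while the astroglial marker GFAP and NES were below the median level, at 3.83 and 3.62. Of the epithelial markers 0 of 7, of the leukocyte markers 2 of 6 (CD68 and NKG7), of the endothelial markers 1 of 6 (KDR) and of the neuronal and oligodendrocyte markers 1 of 6 (SNAP25) were above 5.16, the median level of all probe sets. CSF1R, a further leukocyte marker, lay at 5.02, between that and the median of the gene means, 4.95. The mean levels of these lists were alike in both groups, for leukocyte markers 4.66 to 4.76 with miR-490 against 4.77 in both controls. In these bulk samples, fewer cells with a transcript and less transcript per cell cannot be told apart.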

How the data were processed

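Total RNA of U87MG cells was labelled with biotin and hybridised to 4 PrimeView arrays, per the labels' protocols, and the sample titles gave each array's group and number. The authors deposited 1 log2 value for each probe set and array. Per the submitters' processing notes RMA was used, which equalises the arrays and so hides a shift common to most transcripts. Its version is not given in the sources used here. Of 49293 probe sets, 44988 have 1 gene symbol. The miR-490 arrays were compared with the control arrays with limma 3.58.1 under R 4.3.3 (lmFit, then eBayes). The test was two-sided on 2 residual degrees of freedom, to which eBayes added 2.73 prior ones for probe sets and 3.69 for genes. The p-values were adjusted by Benjamini-Hochberg at a threshold of 0.05. This was done over all probe sets and over the means of each of 18132 genes' single-symbol probe sets. No filter on dim probe sets was applied. Precision is set by the 4 arrays. The fit was also run on simulated data, as a check that it recovers the mean size of added differences. That check does not show how small a difference the 4 arrays can detect. Named genes are the 9 genes, 11 fixed pathway genes where measured (BTG2 was not analysed here), and up to 4 genes per list with the smallest p. Outside this rule, the 4 genes with lower means in the list repressed through p21 and DREAM were named too. Members and lists were chosen with earlier results of these data known. Alternatives were other normalisations, variance priors, filters, probe set summaries, a replicate block and leaving out each array. Promoter windows were searched in Python 3.11.15, and figures were drawn with matplotlib 3.10.9.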

Additional observations from a re-analysis of the deposited data

How the results depend on the processing

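The number of probe sets with an adjusted p under 0.05 was 0 in each of the 12 alternatives run, and so was the number of genes. The smallest adjusted p was 0.335 over all probe sets and 0.0627 over all genes, both with an intensity trend and a robust prior, and the smallest for any of the 9 genes or their probe sets was 0.643. At an unadjusted p under 0.05, where the reported fits gave 2537 probe sets and 959 genes, leaving out 1 array gave 1679 to 3048 probe sets and 586 to 1058 genes, and the ordinary test gave 2613 and 965. No label says that a number marks a shared batch, and the deviations of same-numbered arrays correlated at -0.084 over all probe sets, so the fits used no block. With the replicate number as a replicate block, 0 probe sets and 0 genes passed, with 1936 and 741 at an unadjusted p under 0.05. As the reported fits had 0 calls, the block could take none away. For the gene mean of GDF15, the unadjusted p of 0.0478 became 0.0913 with the block (limma) and 0.159 in the ordinary test. Of 469 alternative values of the 40 probe sets 23 changed sign, and of 107 values of the 9 genes 5 did, in each case where 1 array was left out and with 0 calls. The list medians without each array were added after seeing the data. The precision is limited by the 4 arrays, and detection calls were not used here, so dim probe sets could not be told from background.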

Other observations

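Most probe sets of the 9 genes were higher on the array numbered 1 than on the array numbered 2 of the same group. This held for 30 of 40 in the miR-490 pair, with a median difference of 0.055 on the log2 scale, and for 29 of 40 in the control pair, with a median of 0.07. Over all probe sets the share was 48.4% in the miR-490 pair and 44.8% in the control pair. Probe sets of 1 gene are not independent, and no label ties arrays of the same number to one preparation. The cause was not tested. In the control pair 5 of the 40 probe sets differed by more than 0.3 and the largest gap was 0.95, and in the miR-490 pair 2 did and the largest gap was 0.44.

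Among the 9066 genes above the median level, those closest to GDF15 in pattern over the 4 arrays, by the Euclidean distance of values centred on each gene's mean, were LRIG1, HIRA and CPQ, at 0.024 to 0.038. For CDKN1A they were KIF1B, H3-3B and ZKSCAN1, and for MDM2 GPALPP1, PAN2 and PIP4P2, at distances of 0.0024 to 0.022. These distances rest on 4 values per gene.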
